A study of Pseudotsuga menziesii with 66 samples.

Results

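Needle RNA of 5 young trees of Douglas-fir (Pseudotsuga menziesii) sampled on 7 Feb 2011 was compared with that of the same 5 trees sampled 32 days earlier, on 6 Jan 2011. The comparison takes the 10 libraries of these dates out of the 66 libraries from 16 dates analysed here, chosen by the tree and date in their names. It asks how the transcripts of overwintering needles differed between the middle of winter and its later part.

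The trees were CCTO43, CCTO44, CCTO46, CCTO89 and CCTO90, and each gave 1 library on 7 Feb and 1 on 6 Jan. All 5 grew from low-elevation Siskiyou seed in the same garden in Oregon, with no treatment named in the labels, and the needles of both dates had grown in 2010 and were picked around midday. The seed of CCTO44 and CCTO90 came from a higher locality than that of CCTO43, CCTO46 and CCTO89. The 5 libraries of a date are 5 trees, but they share 1 day of weather, so what belongs to that day and what belongs to the season cannot be told apart. Each library pooled several needles of a tree, and in such bulk samples fewer cells of a type and less RNA per cell cannot be told apart.

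Evergreen conifers keep their needles through the winter. During hardening in autumn the needles build up freezing tolerance, with protective proteins and sugars, and slow their photosynthesis while the light-harvesting machinery dissipates much of the energy it absorbs; as temperature and day length increase, both changes are undone step by step. The transcripts below carry identifiers that the files do not pair with gene names, so they are described by their levels and patterns and the needle tissue was not checked against marker genes.

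The 10 libraries held between 17835244 and 24869608 counts, against 9924771 to 37373284 over all 66. At these depths the 3 counts taken as a floor correspond to between 0.121 and 0.168 CPM (counts scaled to a common library total, with the normalization factors of all libraries). A transcript was called changed at an adjusted p under 0.05 in edgeR's quasi-likelihood test with the tree as block, and 60931 transcripts were tested. These held between 99.4% and 99.7% of the counts of each of the 10 libraries.

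On 7 Feb, 12324 transcripts, 20.2% of those tested, differed from 6 Jan. Of these, 5165 (8.48% of those tested) were higher and 7159 (11.7%) were lower on 7 Feb. The median change was 2.25-fold among those called higher, with quartiles of 0.81 and 1.64 on the log2 scale, and 2.44-fold among those called lower, with quartiles of -1.81 and -0.85. Over all tested transcripts the median log2 change was 0.00, with quartiles of -0.45 and 0.50. At least 2-fold changes were estimated for 3151 of the called transcripts that were higher (5.17% of those tested) and 4767 that were lower (7.82%). At least 4-fold changes were estimated for 748 (1.23%) and 1373 (2.25%). Without the tree in the model the counts were 3028 higher and 4775 lower, and with the 10 libraries alone they were 7834 higher and 7502 lower among 35768 tested transcripts. With upper-quartile scaling in place of TMM, 6211 were higher and 6147 were lower, so the split of the calls between directions depended on the scaling.

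**Figure D1:**
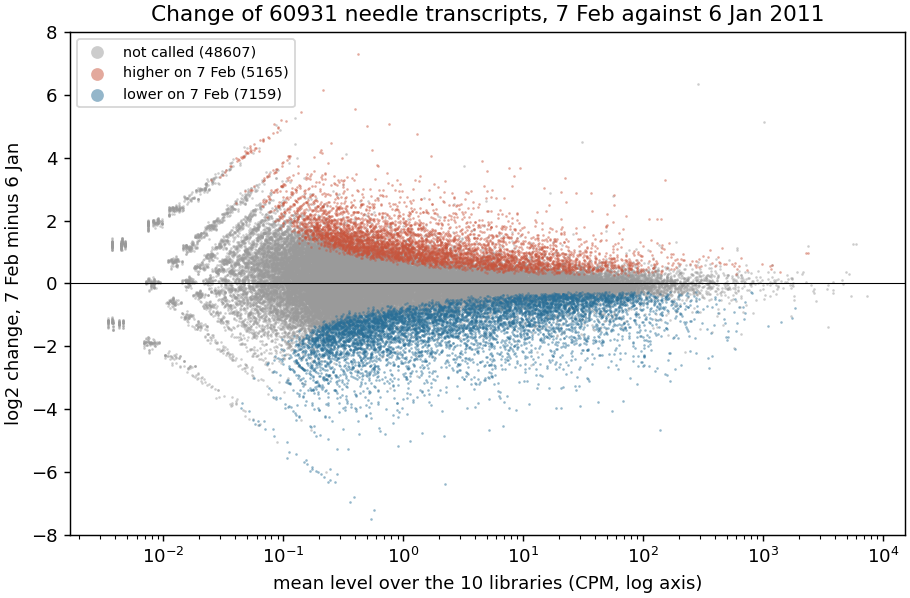
Log2 change between 7 Feb and 6 Jan 2011 (7 Feb minus 6 Jan) of each tested transcript against its mean level over the 10 libraries in CPM on a log axis. Red points are the 5165 transcripts called higher on 7 Feb, blue points the 7159 called lower and grey points those not called; at 10 CPM and above the blue points outnumber the red ones.

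The transcripts called lower took up a larger part of the counts than those called higher in each library of 6 Jan, while on 7 Feb the ranges of both lists overlapped and in CCTO90 the transcripts called higher held more. Among well-represented transcripts lower calls were more frequent. Transcripts called lower made up between 9.25% and 11.0% of the counts of a library on 7 Feb (median 10.8%), against 17.6% to 21.5% on 6 Jan (median 19.1%). Those called higher made up between 8.22% and 10.7% on 7 Feb (median 9.62%), against 4.70% to 5.79% on 6 Jan (median 5.24%). These shares describe the lists, since the same counts chose them. Of the 1346 transcripts with a mean of at least 100 CPM, 244 (18.1%) were lower and 86 (6.39%) higher on 7 Feb. Between 10 and 100 CPM, 1843 (18.8%) were lower and 821 (8.38%) higher. Below 0.3 CPM the shares were 4.86% lower and 4.74% higher. CPM are not corrected for transcript length, so these classes rank transcripts by their share of the counts.

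Transcripts moved in level, and few were present on one date and absent on the other. No tested transcript had 0 counts in all 5 libraries of one date and at least 10 counts in each library of the other. With a requirement of at least 1 count in each, 167 of the 199471 transcripts in the count table had no count on 7 Feb. On 6 Jan 54 had none. At these depths this can also be a matter of sampling. These numbers were taken without equal depth, and libraries held 18364242 to 24869608 counts on 6 Jan against 17835244 to 20705894 on 7 Feb. When each library was drawn down to 17835244 counts, 92400 ± 5472 transcripts were detected on 7 Feb and 93010 ± 2390 on 6 Jan (SD, n = 5 each), a mean difference within trees of -610 (exact two-sided sign-flip permutation test over 5 pairs, p = 0.8125, adjusted p = 0.8125 over the 3 measures of composition tested). The 20 most abundant transcripts of a library held 11.3% ± 2.49 of its counts on 7 Feb and 9.34% ± 0.888 on 6 Jan (SD, n = 5 each), a share that was higher in 4 of 5 trees (exact sign-flip permutation test, p = 0.125, adjusted p = 0.281). For the 100 most abundant the shares were 23.8% ± 2.61 and 21.5% ± 1.40 (exact sign-flip permutation test, p = 0.1875, adjusted p = 0.281). With 5 pairs this test cannot give a p below 0.063. These differences rested in part on single trees. Without CCTO89 the difference within trees was 0.800 percentage points for the 20 and 1.18 for the 100 most abundant, against 1.95 and 2.39 with all 5 trees. The difference in detected transcripts turned to 1134 without CCTO89 and to 593 without CCTO90.

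Single transcripts showed how far levels moved. The 8 transcripts with the largest rises were those at 10 CPM or more, called, and higher on 7 Feb in all 5 trees; their fitted increases lay between 6.05-fold and 10.2-fold. One of these rises, with a log2 change of 3.05, gave 4.01 without CCTO46. The 8 with the largest falls, chosen in the same way, were between 13.4-fold and 25.2-fold lower on 7 Feb. In 6 of the 8 rises and in 8 of the 8 falls the 5 values of 7 Feb did not overlap the 5 values of 6 Jan. The rule chose these transcripts on the same values, so this describes them and is no support for the changes. Not all of these transcripts are separate either. A pair of the rises kept a ratio of 1.06 to 1.64 over the 10 libraries, and 4 of the falls varied together. Of the 5165 transcripts called higher 1778 did not overlap, and of the 7159 called lower 3120. Over all tested transcripts 2070 (3.4%) lay wholly above and 3493 (5.73%) wholly below in this way. The 2 largest in each direction are given with their values.

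By the fit of all trees psme_t033803 rose most, although it did not rank first when CCTO43, CCTO44 or CCTO46 was left out. It had 80.4 CPM in CCTO43, 23.0 in CCTO44, 19.5 in CCTO46, 0.582 in CCTO89 and 81.5 in CCTO90 on 7 Feb, against 6.86, 0.380, 1.62, 0 and 9.84 CPM in the same trees on 6 Jan. All 5 trees were higher on 7 Feb, but trees differed so widely that the dates overlapped, and CCTO89 was low on both. The fitted log2 change was 3.35 ± 0.79 (SE; edgeR adjusted p = 0.00136). Its later levels were 182 ± 192 CPM on 23 Feb (SD, n = 4) and 376 ± 150 CPM on 10 Mar (SD, n = 5), and it was at 0.127 ± 0.0955 CPM on 17 Aug (SD, n = 4). The last of these is near the floor given for the libraries of the comparison.

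psme_t016090 had 282 CPM in CCTO43, 131 in CCTO44, 233 in CCTO46, 288 in CCTO89 and 449 in CCTO90 on 7 Feb, against 41.1, 13.4, 24.5, 16.8 and 44.6 CPM on 6 Jan. The lowest library of 7 Feb was thus above the highest of 6 Jan, and the ratio within a tree lay between 6.87 and 17.1. The fitted log2 change was 3.31 ± 0.44 (SE; edgeR adjusted p = 2.17e-07). This transcript was at 144 ± 95.7 CPM on 9 Nov and at 6.38 ± 3.82 CPM on 30 Nov (SD, n = 5 each), and reached 1096 ± 194 CPM on 23 Feb (SD, n = 4). Its date means were lowest on 30 Nov and 6 Jan of the 16 dates.

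The largest fall was that of psme_t081851. It had 13.9 CPM in CCTO43, 19.9 in CCTO44, 6.74 in CCTO46, 9.26 in CCTO89 and 5.18 in CCTO90 on 7 Feb, against 202, 351, 206, 277 and 302 CPM on 6 Jan. Its level on 7 Feb was between 0.0171 and 0.0691 times that on 6 Jan in each tree, with no overlap of the dates. The fitted log2 change was -4.66 ± 0.52 (SE; edgeR adjusted p = 5.06e-09). It was also low before the winter, at 8.03 ± 1.64 CPM on 9 Nov, and high at 357 ± 46.9 CPM on 30 Nov (SD, n = 5 each). After 9.06 ± 6.92 CPM on 23 Feb (SD, n = 4) it was higher again on 10 Mar, at 152 ± 119 CPM (SD, n = 5), with a log2 change of 3.89 between these dates (edgeR adjusted p = 3.45e-06). It was the 1 of the 8 largest falls that rose again in that interval.

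psme_t007911 had 4.34 CPM in CCTO43, 13.6 in CCTO44, 5.21 in CCTO46, 4.75 in CCTO89 and 3.91 in CCTO90 on 7 Feb, against 91.7, 122, 91.0, 70.1 and 146 CPM on 6 Jan. The dates did not overlap, and CCTO44 was the highest library of 7 Feb. The fitted log2 change was -4.05 ± 0.64 (SE; edgeR adjusted p = 4.14e-06). Its level had been 3.07 ± 2.48 CPM on 9 Nov and 52.5 ± 20.1 CPM on 30 Nov (SD, n = 5 each), and it stayed between 0.0847 and 6.11 CPM, as date means, from 23 Feb to the end of the year of sampling. The lowest of these means is below the floor given for the libraries of the comparison. Of the 16 dates, only 30 Nov and 6 Jan had means above 10 CPM for this transcript.

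**Figure D2:**
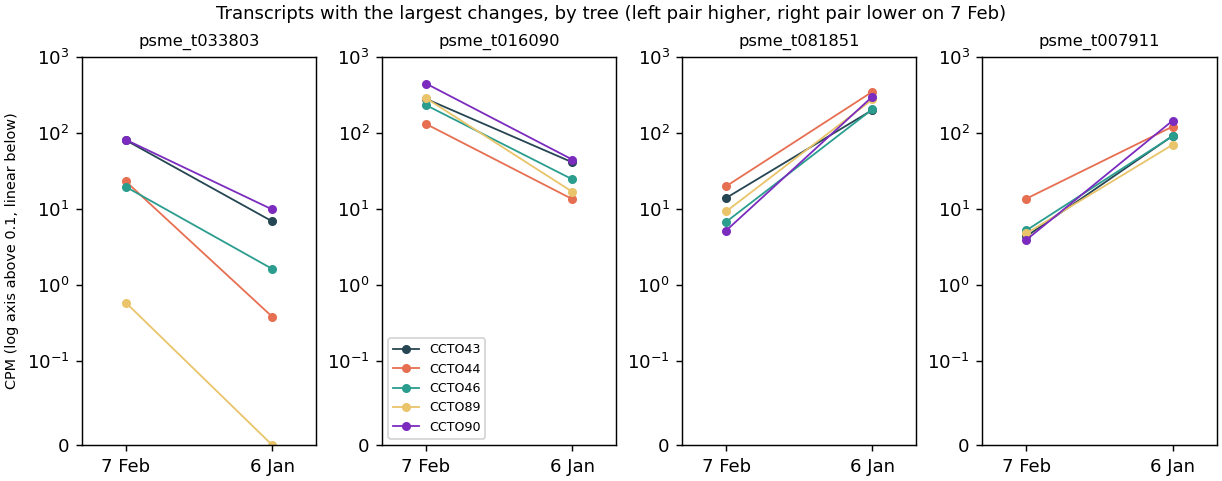
CPM on 7 Feb (left) and 6 Jan 2011 (right) in each of the 5 trees, joined by a line per tree, for the 2 largest rises and the 2 largest falls. The axis is logarithmic above 0.1 CPM and linear below; psme_t033803 in CCTO89 had 0.582 CPM on 7 Feb and 0 on 6 Jan, and the dates overlapped only for that transcript.

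The largest changes in abundance, in CPM, were smaller as ratios. The 4 transcripts with the largest increases in mean CPM, among those called and higher on 7 Feb in all 5 trees, had means between 1203 and 3135 CPM on 7 Feb, against 782 to 1662 CPM on 6 Jan, and fitted ratios of 1.52 to 1.97. The 4 with the largest decreases had means between 624 and 1366 CPM on 7 Feb, against 1597 to 2367 CPM on 6 Jan, and were 1.73-fold to 2.54-fold lower. Of these 8 transcripts, 1 increase was no longer called when CCTO43, CCTO44 or CCTO46 was left out, 1 decrease without CCTO46 or CCTO90, and another decrease without CCTO44 or CCTO46. The largest increase was no longer called without the tree in the model (edgeR adjusted p = 0.0605). Such losses came to 13 over all settings. The first pair among these increases ran in parallel over all 66 libraries, with a ratio between 0.866 and 1.08, so those transcripts may share reads and are not separate evidence; how near-identical transcripts were counted is not given in the sources used here.

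The 5 transcripts with the most counts on 6 Jan did not pass the test. psme_t027936 averaged 6077 ± 1594 CPM on 7 Feb and 8597 ± 1046 CPM on 6 Jan (SD, n = 5 each) and was lower in 4 of 5 trees, with a log2 change of -0.41 ± 0.34 (SE; edgeR adjusted p = 0.449). psme_t044194 had 4534 ± 1148 CPM on 7 Feb and 6417 ± 1093 CPM on 6 Jan (SD, n = 5 each), and it ran in parallel with psme_t027936 at a ratio between 0.847 and 1.41 over the 66 libraries, so the same caution on shared reads applies. psme_t040843 was higher on 7 Feb in all 5 trees, at 5775 ± 744 CPM against 4743 ± 737 CPM on 6 Jan (SD, n = 5 each), with a log2 change of 0.29 ± 0.16 (SE; edgeR adjusted p = 0.220). Fitted with the 10 libraries alone, psme_t027936 and psme_t040843 passed the threshold. psme_t002245 had 4634 ± 524 CPM on 7 Feb and 4721 ± 377 CPM on 6 Jan, and psme_t083272 had 4607 ± 631 and 4495 ± 641 CPM (SD, n = 5 each). psme_t083272 reached 38363 ± 16234 CPM on 10 Mar (SD, n = 5), while its values of 7 Feb overlapped those of 6 Jan.

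Over all tested transcripts, the log2 changes of any 2 trees correlated at 0.49 to 0.57 across transcripts, a description over 10 pairs of trees that share the dates. Of the 5165 transcripts called higher, 4636 (89.8%) were higher on 7 Feb in each of the 5 trees, and of the 7159 called lower, 6350 (88.7%) were lower in each; over all tested transcripts the shares were 16.3% and 18.4%. The calls were made from the same 5 trees, so these shares describe the lists and are no support for them. The median size of the change over all tested transcripts lay between 0.43 in CCTO43 and 0.51 in CCTO89 on the log2 scale. The share of transcripts that moved at least 2-fold ran from 18.4% in CCTO43 to 23.0% in CCTO89.

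To set the calls against needles that had not entered them, transcripts were called from 4 trees and read in the tree left out. Between 94.3% and 95.1% of these calls had the same direction there, against 68.2% to 73.0% of all tested transcripts and 63.7% to 68.7% of those not called. The tree left out had a median log2 change between 0.77 and 0.95 for the transcripts called higher, against 1.23 to 1.28 in the fits of the 4 trees. For those called lower the medians were between -1.11 and -0.93 in the tree left out, against -1.48 to -1.35. The values of a single tree were computed with a prior count of 2, which draws low counts towards 0, while the fits were not, so the gap mixes both.

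**Figure D3:**
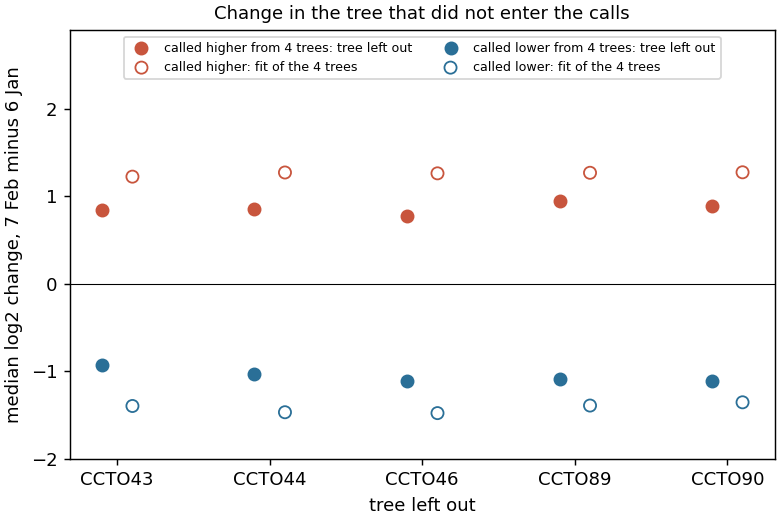
Median log2 change (7 Feb minus 6 Jan) of the transcripts called from 4 trees, in the tree left out (filled points) and in the fit of the 4 trees (open points), for transcripts called higher (red) and lower (blue). In all 5 trees the filled points lie on the same side of 0 as the open ones and nearer to it, between 0.77 and 0.95 for the higher and between -1.11 and -0.93 for the lower transcripts.

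The same transcripts were then followed through intervals that hold no library of 7 Feb or 6 Jan. Between 23 Feb (4 trees, without CCTO90) and 30 Nov (5 trees), which lie outside the January to February interval on both sides, 4025 (77.9%) of the transcripts called higher were also higher on 23 Feb and 24 (0.465%) were lower. Of those called lower, 5499 (76.8%) were also lower on 23 Feb and 37 (0.517%) were higher. Over all tested transcripts, 20.9% were higher and 19.1% lower on 23 Feb. The transcripts shared by both intervals were 31.6% of the 12719 that were higher on 23 Feb and 47.3% of the 11630 that were lower. Over the whole lists, shared or not, the median log2 change between 30 Nov and 23 Feb was 1.36 for the transcripts called higher and -1.43 for those called lower, against 0.11 over all tested transcripts. Among at least 4-fold changes the shares were 74.3% and 79.3%. Each of the 8 largest rises was higher and each of the 8 largest falls lower on 23 Feb than on 30 Nov.

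**Figure D4:**
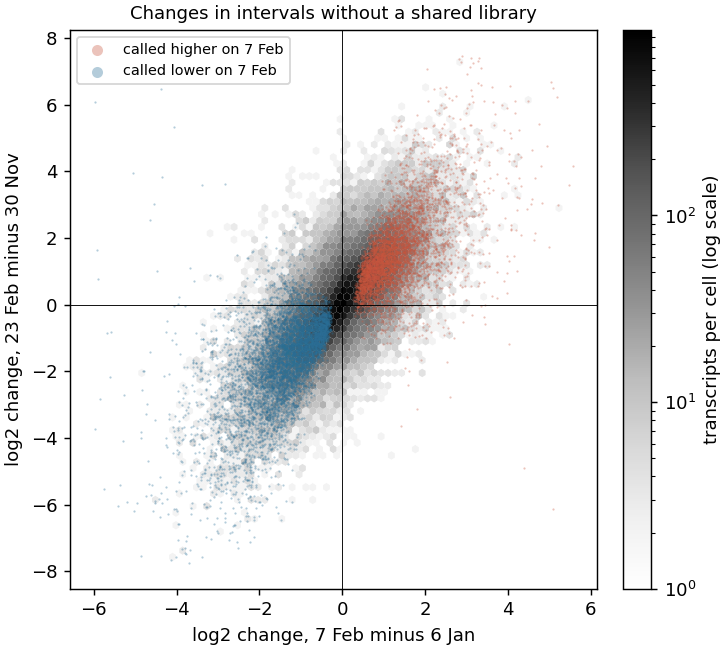
Log2 change between 23 Feb and 30 Nov (vertical axis, 23 Feb minus 30 Nov) against log2 change between 7 Feb and 6 Jan (horizontal axis, 7 Feb minus 6 Jan), grey for all tested transcripts on a log density scale, red for those called higher and blue for those called lower on 7 Feb. Points beyond 6 and 8 log2 units are not drawn. Of the red points 77.9% passed the test as higher and of the blue points 76.8% as lower on 23 Feb.

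After 23 Feb, more falls than rises went on in the same direction. The interval from 23 Feb to 10 Mar shares the libraries of 23 Feb with the longer interval described before it. Their shares are therefore not set against each other. Between 10 Mar and 23 Feb, 568 (11.0%) of the transcripts called higher on 7 Feb were higher on 10 Mar and 428 (8.29%) lower, against 10.6% and 9.85% over all tested transcripts, with a median log2 change of 0.03. The share that was higher is near that background. Of the transcripts called lower on 7 Feb, 1292 (18.0%) were lower on 10 Mar and 386 (5.39%) higher, with a median of -0.34 against 0.00 over all tested transcripts. They made up 21.5% of the 6000 transcripts that were lower on 10 Mar. Without CCTO46 the share of the lower transcripts that went on falling was 10.6%. The share of the higher transcripts that went on rising was 5.89% without CCTO46, 7.25% without CCTO89, 6.45% with no filter and 6.47% without the tree in the model. These other fits had their own lists. Their shares over all tested transcripts are not given, so the shares above over all tested transcripts are no background for them.

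The onset of winter showed the opposite directions. Between 30 Nov and 9 Nov, 1965 (38.0%) of the transcripts called higher on 7 Feb were lower on 30 Nov and 26 (0.503%) were higher, against 7.36% lower and 7.69% higher over all tested transcripts. Of the transcripts called lower on 7 Feb, 2769 (38.7%) were higher on 30 Nov and 34 (0.475%) were lower. The median log2 changes were -0.71 for the transcripts called higher and 0.59 for those called lower, against -0.03 over all. They were 43.8% of all transcripts that were lower on 30 Nov and 59.1% of those that were higher. Of the 8 largest rises 6 were lower on 30 Nov than on 9 Nov, and of the 8 largest falls 7 were higher. This interval and that from 30 Nov to 23 Feb share the libraries of 30 Nov, so their values are not set against each other.

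Relative to the mean of the 14 dates that did not choose them, transcripts called higher had a median log2 level of -0.92 on 30 Nov, 0.24 on 23 Feb and 0.22 on 10 Mar. Those called lower stood at 1.29 on 30 Nov, 0.01 on 23 Feb and -0.26 on 10 Mar, and between -0.44 and -0.34 from 6 May to 7 Sep. On the dates of the comparison the medians were 0.12 on 7 Feb and -0.85 on 6 Jan for transcripts called higher, and 0.32 and 1.45 for those called lower. Of the other 14 dates, 30 Nov was the date of highest mean level for 68.7% of the transcripts called lower, against 17.5% of all tested transcripts and 0.252% of those called higher. Transcripts called higher had their highest dates spread out, with 23 Feb for 15.1% (6.83% of all tested) and the 4 dates from 7 Jul to 7 Sep together for 39.6% (24.3% of all tested). Date means were taken over the trees sampled, without adjustment for tree, and 7 Sep had 2 libraries. That date alone was highest for 11.5% of the transcripts called higher (10.0% of all tested). On 27 Oct 2010 the medians of the lists were -0.32 and 0.56. On 26 Oct 2011, with 3 trees, they were -0.07 and -0.24, while that of all tested transcripts was -0.15. The library of CCTO43 of that date was among the 3 left out as doubted in an alternative fit, and the others were of 17 Aug.

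**Figure D5:**
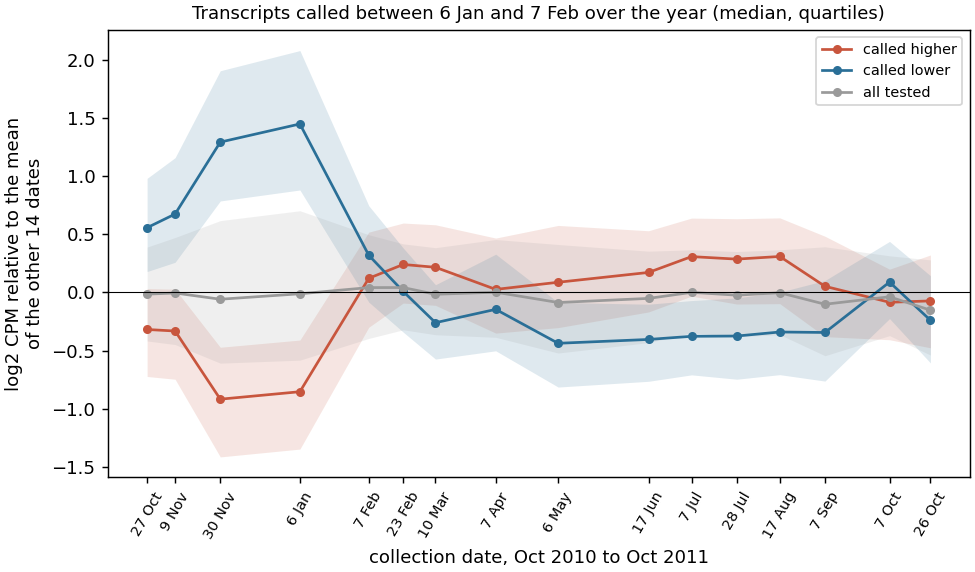
Median log2 CPM over the 16 dates, relative to the mean of the 14 dates other than 7 Feb and 6 Jan, for transcripts called higher on 7 Feb (red), called lower (blue) and all tested (grey), with bands for the quartiles over transcripts. The red line is lowest on 30 Nov (-0.92) and the blue line highest on 6 Jan (1.45), with 30 Nov (1.29) next.

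No transcript passed the test of a change that differed between seed localities. The change from 6 Jan to 7 Feb in the 2 trees of higher seed origin and the 3 of lower origin gave 0 calls of 60931 in edgeR, and 1279 (2.1%) at an unadjusted p under 0.05. In counts simulated for this contrast the test recovered 2% of 2-fold and 42% of 4-fold differences, so smaller differences would mostly have been missed. The simulated differences were put into transcripts with a mean of at least 1 CPM with a common dispersion, so recovery in the data may be lower. In 4 of the 8 largest falls, both trees of the higher locality were below all 3 trees of the lower locality on both dates, though the ranges over the 4 transcripts overlapped. On 7 Feb they had 0.182 to 2.49 CPM in the trees of the higher locality and 1.75 to 32.7 CPM in those of the lower. On 6 Jan they had 6.90 to 59.0 CPM in the trees of the higher locality and 42.0 to 212 CPM in those of the lower. These 4 transcripts varied together, with correlations between 0.892 and 0.944 in 5 of their pairs over the 66 libraries, so they are not separate evidence. The pattern held for 637 (8.90%) of the transcripts called lower and 152 (2.94%) of those called higher, against 6.30% of all tested. The opposite pattern, with the trees of the higher locality above on both dates, held for 4.04% of the transcripts called lower and 8.31% of those called higher, against 6.63% of all tested. The comparison was read after the values were seen and was not tested, and with 2 and 3 trees the locality and the single trees cannot be told apart.

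The library of CCTO89 of 7 Feb stood apart in a few transcripts. psme_t002154 had 32485 CPM there, against 0.269 to 14.8 CPM in the other 4 trees on 7 Feb and 0.306 to 2259 CPM on 6 Jan, where CCTO90 was the highest. psme_t065136 had 10154 CPM and psme_t064874 had 2895 CPM in the same library, and at most 19.6 and 4.49 CPM in the other 9. These 3 transcripts held 4.96% of the counts of that library, against at most 0.269% in the others, and none of them was called. Without them the 20 most abundant transcripts of that library would hold 11.8% of its counts. The transcripts were picked after their values were seen.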

How the data were processed

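Poly(A) RNA libraries that keep the strand were sequenced by Illumina short reads, per the labels' protocols. Bowtie2 2.2.3, CASAVA 1.8 and DESeq appear in the submitters' processing notes. The sources used here give neither the transcript reference nor how reads were counted. The authors deposited counts, as whole numbers, for 66 libraries and 199471 transcripts, and 28846 of the transcripts were never counted. Further deposited tables, normalized and interpolated, were not used here.

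In R 4.3.3, edgeR 4.0.16 (with limma 3.58.1) was fitted to all 66 libraries, so that the 16 dates share 1 estimate of the spread. The model had date and tree; filterByExpr by date with a minimum count of 10 left 60931 transcripts, scaling was TMM, and the robust quasi-likelihood fit had 46 residual degrees of freedom. Benjamini-Hochberg adjustment ran over all transcripts. The seed-locality test added date by locality terms. Libraries of a tree are paired because they come from the same tree: deviations from the date means correlated at 0.679 to 0.744 between 7 Feb and 6 Jan within trees, and at 0.0755 at most between trees. The deviations of a date cancel over its trees, which by itself lowers the correlations between trees. No pair of the 10 libraries agreed within sampling noise, with a lowest chi-square per degree of freedom of 34.2 over 45 pairs. In simulated counts of 60931 transcripts the comparison of dates recovered 57% of 2-fold and 99% of 4-fold changes, with 10 false calls. These counts had a common dispersion and no differences between trees, and only transcripts with a mean of at least 1 CPM were changed. Recovery in the data may thus be lower and false calls more frequent. Floors cover counting error only, since reads without molecular identifiers are not independent molecules.

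The transcripts described singly or as the largest changes follow a rule. The first part took the 8 largest log2 changes in each direction at 10 CPM or more over the 10 libraries, called and in 1 direction in 5 of 5 trees; the second took the 4 largest differences in CPM in each direction under the same conditions without the minimum level. The rule also took the 5 most abundant transcripts of 6 Jan, the largest locality differences, of which there were none, and the 2 smallest p in each direction. This gave 32 transcripts, of which few are named because gene names are not paired with identifiers in the files. The comparison, the rule and the lists were chosen with earlier results of these data known. Alternatives were other scaling, no filter, no tree in the model, each tree left out, the 10 libraries alone, DESeq2 1.42.0, limma-voom and the omission of 3 libraries of August and October 2011. These libraries were left out as doubted, and none belongs to 7 Feb or 6 Jan. The older quasi-likelihood fit with trended dispersion and the 10 libraries with the transcripts and scaling of all were added after seeing the data.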

Additional observations from a re-analysis of the deposited data

Results flagged for a closer look

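In 4 of 70 groups of 5 libraries examined, 1 tree stood far from the other 4 by the gap between the extreme value and its neighbour. For independent values of a normal distribution, chance alone marks about 1 group in 20, and the number found is near that rate. CPM need not be normal, and some of these transcripts varied together. psme_t007911 had 13.6 CPM in CCTO44 on 7 Feb, and the next highest of that date was 5.21 CPM. Another of the 8 largest falls had 1.55 CPM in CCTO89 on 7 Feb, below the next lowest of 2.73 CPM. The fall with the smallest p among transcripts at 10 CPM or more had 43.04 CPM in CCTO89 on 6 Jan, above the next highest of 20.5 CPM. In 1 of the 4 largest decreases in CPM, CCTO46 had 1208 CPM on 7 Feb, and the next highest was 531 CPM.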

How the results depend on the processing

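Of 30 counts of changed transcripts under other settings, 26 stayed within 1.5 times the reported ones, and no transcript was called in the opposite direction. Without a replicate block, 3028 transcripts were higher on 7 Feb. With the 10 libraries alone 7834 were higher, and with the 10 libraries but the transcripts and scaling of all 66, 8484 were higher and 10741 lower. Leaving out 1 tree gave between 3860 and 4112 higher and between 5187 and 5876 lower. The older edgeR fit gave 4337 higher and 5473 lower, DESeq2 4734 and 6982, and limma-voom 4488 and 6398. Without the 3 doubted libraries of other dates, 6323 were higher and 7862 lower, so libraries outside the comparison moved the counts. RLE size factors in place of TMM gave 4832 higher and 7699 lower. With no filter on low counts 3674 were higher and 5748 lower among 170625 tested transcripts.

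The locality interaction gave 0 to 1 calls when 1 tree was left out; the 1 came without CCTO46 and was psme_t181984, which had 306 CPM in CCTO89 on 7 Feb and at most 3.82 CPM in the other 9 libraries. The 10 libraries alone gave 5, psme_t002981, psme_t042064, psme_t052322, psme_t064874 and psme_t069232, none called with all libraries. Of these, psme_t064874 also rested on 1 library, with 2895 CPM in CCTO89 on 7 Feb and at most 4.49 CPM in the other 9. These 6 are named because of their small number, after their values were seen.

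For 23 Feb against 30 Nov, 71.8% of the transcripts called lower were also lower with no filter; with 1 tree left out the shares ranged over 73.2% to 78.9% for the higher and 72.0% to 80.3% for the lower transcripts. For 10 Mar against 23 Feb, the share of the higher transcripts was 6.45% with no filter, 9.16% with upper-quartile scaling, 6.47% without a replicate block and 5.89% to 9.80% with 1 tree left out; for the lower transcripts it was 12.1% with no filter, 12.8% without the block and 10.6% to 18.2% with 1 tree left out. For 30 Nov against 9 Nov, the share of the higher transcripts that were lower on 30 Nov was 29.6% with no filter, 34.6% with upper-quartile scaling, 32.3% without the block and 29.8% to 36.9% with 1 tree left out; that of the lower transcripts that were higher on 30 Nov was 33.5% without the block and 29.7% to 41.7% with 1 tree left out. The cause was not tested.

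The difference in detected transcripts ranged over -1671 to 1134 with 1 tree left out, with 1134 without CCTO89 and 593 without CCTO90, and those in the shares of the 20 and 100 most abundant over 0.800 to 2.47 and 1.18 to 3.03 percentage points. Of 2 uncalled transcripts the log2 change turned sign: psme_t002245 gave 0.049 with upper-quartile scaling, 0.041 with the 10 libraries alone and -0.077 to 0.044 with 1 tree left out, above 0 without CCTO43, CCTO46 or CCTO89, and psme_t083272 gave -0.046 to 0.169 with 1 tree left out, below 0 without CCTO89. Of the 480 values of singly described transcripts under other settings, 457 kept direction and call, and 13 kept direction and lost the call, all in the 8 transcripts with the largest differences in CPM. The 16 largest changes in log2 kept theirs under every setting run. Depth limits the low transcripts: below 0.3 CPM a library held few counts of each.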

Other observations

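The 3 transcripts that stood out in CCTO89 on 7 Feb were high in few other libraries of the year. psme_t002154 had 15667 CPM in CCTO89 on 28 Jul, 4008 CPM in CCTO90 on 9 Nov and 3018 CPM in CCTO89 on 23 Feb. psme_t065136 had 3129 CPM in CCTO89 on 23 Feb and 2966 CPM in CCTO90 on 9 Nov, and psme_t064874 had 1091 and 2217 CPM in these libraries. They reached 1000 CPM in libraries of 2 of the 5 trees.

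On both dates psme_t055434 was high in 1 of the 5 trees. It had 838 CPM in CCTO44 on 7 Feb and 1269 CPM in CCTO44 on 6 Jan, against at most 2.24 CPM in the other trees on 7 Feb and 2.26 CPM on 6 Jan. Its highest value of the year was 19066 CPM, in CCTO44 on 7 Jul, and over the year it reached 1000 CPM in 15 libraries of 2 trees. Its change between the dates was not called, with a log2 change of -0.33 (edgeR adjusted p = 0.928). These 4 transcripts were picked after their values were seen.

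The 2 rises with the smallest p among transcripts at 10 CPM or more also ran in parallel, with a correlation of 0.997 and a ratio between 0.874 and 1.49 over the 66 libraries. The correlation is a description over libraries that share trees and dates.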
